A study of Mus musculus with 384 samples.

Results

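Metalloproteinases cut the collagens, proteoglycans and cell surface proteins of the matrix, and tissue inhibitors of metalloproteinases (TIMPs) block them by filling the catalytic cleft. The 9 genes described here are 3 inhibitors, Timp1, Timp2 and Timp3, and 6 proteases, Mmp2, Mmp3, Mmp14, Adamts1, Adamts2 and Adam12. They were taken by gene symbol, 9 of the 40594 genes that both deposited count tables hold. In the fibrotic kidney both arms are made by the fibroblasts and pericytes that lay down collagen, and their ratio is one of the controls on matrix turnover. The arms also meet in 1 complex: TIMP2 bound to the membrane enzyme MMP14 presents the proenzyme of MMP2 for activation.

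The wells are single-cell FACS-seq libraries of mouse kidney from animals aged 8 weeks, in which 1 cell was sorted into each well of a 96-well plate. The 2 sort gates were PDGFRB+CD45- and PDGFRB+CD45+, here CD45- and CD45+, each in batch 1 and batch 2, which gave 4 plates and 384 wells. The platelet-derived growth factor receptor PDGFRB marks pericytes and other mesenchymal cells, and CD45 (gene Ptprc) marks leukocytes. Genotype, strain and treatment are not given in the labels; the well names carry the letters uuo, which the labels do not explain. No animal is named, so each plate counts as 1 sample, no test was made, and the repeat in the other batch is the one check on each difference.

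All 9 proteins have a short coding stretch on which their activity rests, shown here because it tells the 2 arms apart. For the proteases it is the zinc-binding site, with the codons of the 3 histidines that hold the zinc ion and of the catalytic glutamate in capitals. For the inhibitors it is the start of the mature protein, which enters the cleft of the protease, with the codons of the first 2 cysteines in capitals. The coding bases are from the GENCODE M21 mouse transcripts, 5′ to 3′.
Timp1: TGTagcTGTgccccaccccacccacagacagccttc
Timp2: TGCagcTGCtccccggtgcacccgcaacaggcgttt
Timp3: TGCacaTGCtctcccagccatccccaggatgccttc
Mmp2: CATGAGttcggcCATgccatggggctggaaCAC
Mmp3: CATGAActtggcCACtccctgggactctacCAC
Mmp14: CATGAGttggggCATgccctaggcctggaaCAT
Adamts1: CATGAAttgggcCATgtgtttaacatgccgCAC
Adamts2: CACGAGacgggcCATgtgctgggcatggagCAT
Adam12: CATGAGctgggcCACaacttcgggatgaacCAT
Each pair of inhibitors shared 22 of 36 bases over this stretch. Among the proteases the closest pair was Mmp2 and Mmp14, with 27 of 33 bases the same, and the most distant was Mmp3 and Adamts1, with 17 of 33.

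Wells with at least 10000 reads and 500 genes were kept, 93 CD45- wells in each batch and 92 and 90 CD45+ wells in batches 1 and 2. The plates held 26513530 to 31778475 reads on genes. Well values are given for wells of at least 50000 reads, of which there were 79 and 82 in the CD45- gate and 76 and 78 in the CD45+ gate. Levels are CPM, the reads of a gene scaled to the same total of reads on all genes, taken from the sum over the kept wells of a plate. Intervals are exact, at 95%, and cover only the counting error of reads taken as independent. The labels state no molecular identifiers, so copies of 1 molecule are not told apart and the intervals may be too narrow. They do not cover the spread between wells. Pdgfrb itself was at 294 and 220 CPM on the CD45- side and 0.113 and 5.73 CPM on the CD45+ side, where 3 and 6 wells had a read of it. For Ptprc the levels were 0.136 and 0.976 CPM (CD45-) and 469 and 303 CPM (CD45+).

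In both batches most of the 9 genes were higher in the CD45- gate, and the reads came from a minority of wells. Timp1, Timp3, Mmp2, Mmp14 and Adam12 were at least 4-fold higher in CD45- than in CD45+ in both batches, 5 of 9 members, and none of the 9 was 4-fold higher in CD45+ in both. Of the 12882 genes with a mean of at least 1 CPM over the plates, 12.9% were called higher in CD45- by this rule and 4.33% higher in CD45+. The median log2 ratio of the members, CD45+ over CD45- with 1 CPM added to each level, was -2.37 in batch 1 and -2.93 in batch 2, beside -0.39 and -0.56 over all those genes. Members and all genes were measured in the same wells, and no test sets them apart.

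**Figure D1:**
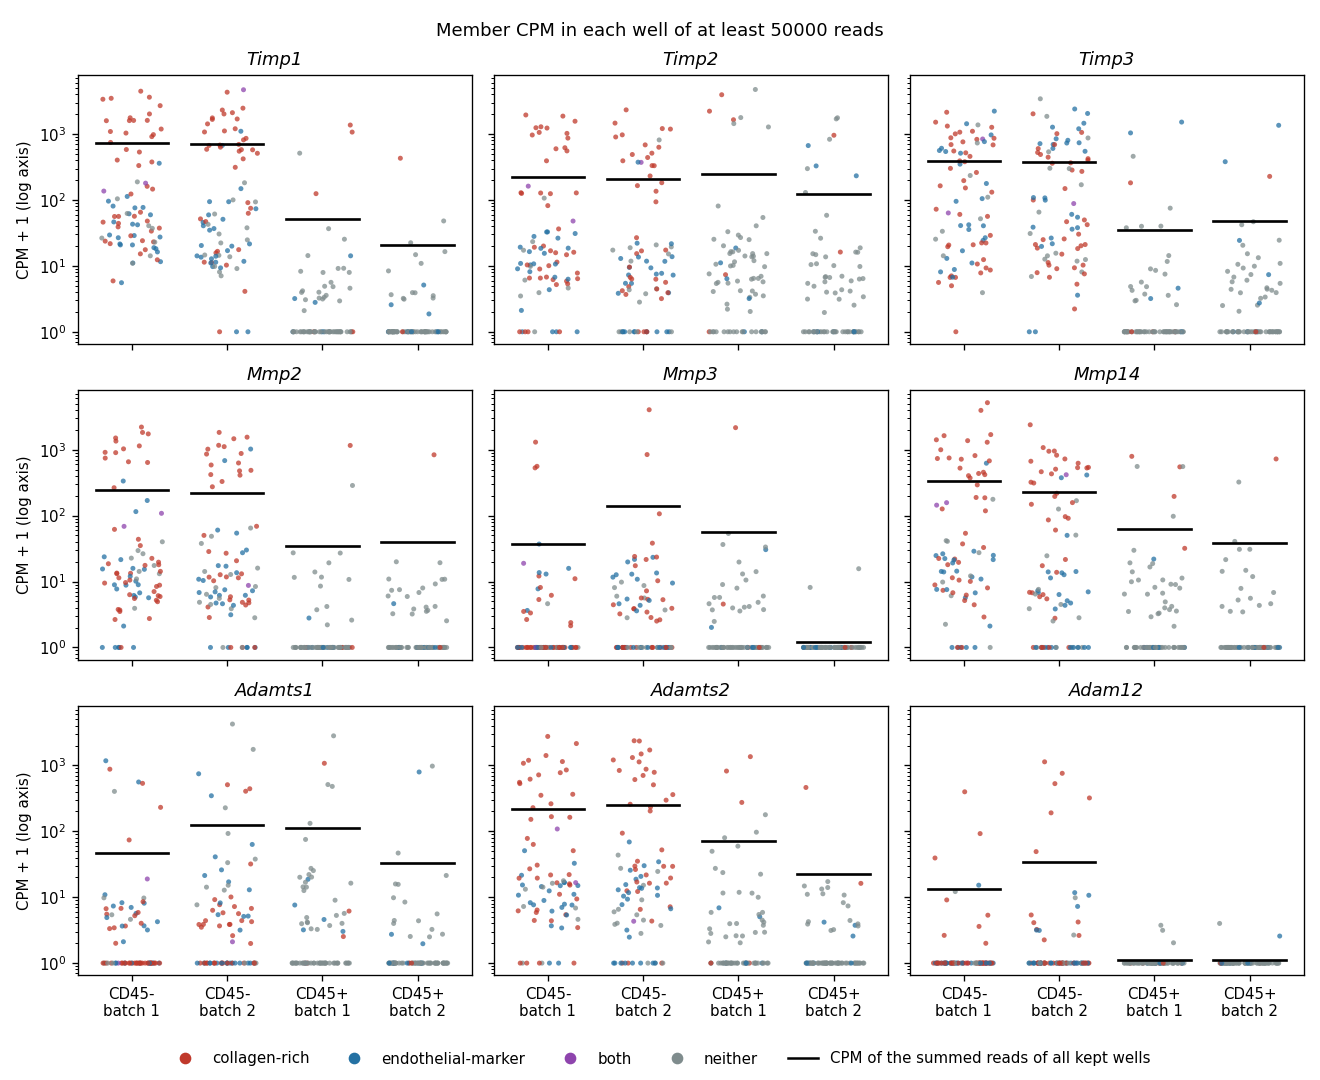
CPM plus 1 on a log axis in each well of at least 50000 reads, for the 9 genes and the 4 plates; points are wells, coloured by class, and black lines are the CPM of the summed reads of all kept wells. Wells over 100 CPM are mostly collagen-rich wells of the CD45- plates, Timp3 is also high in endothelial-marker wells, and the CD45+ lines rest on a few points.

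Timp1, a secreted inhibitor induced in injured tissue, had most reads of the 9 in the CD45- gate. Its CD45- levels were 736 CPM in batch 1 and 698 CPM in batch 2, and its CD45+ levels were 50.7 and 19.96 CPM. The log2 ratios were -3.83 and -5.06. CD45- wells ranged from 4.56 CPM over a median of 55.6 to 4476 CPM in batch 1, and from 0 over 50.3 to 4706 CPM in batch 2. Thus 31 of 79 and 30 of 82 CD45- wells reached 100 CPM, against 4 of 76 and 1 of 78 CD45+ wells. Low reads of Timp1 were nearly everywhere in the CD45- plates, with 0 wells at 0 in batch 1 and 3 in batch 2, whereas 47 and 61 CD45+ wells had none.

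Timp3, the inhibitor that binds to the matrix and also blocks ADAM and ADAMTS enzymes, showed the same gate difference. Its CD45- levels were 390 and 371 CPM and its CD45+ levels 34.2 and 47.8 CPM, log2 ratios of -3.48 and -2.93. It was the member with the widest spread over CD45- wells: 40 of 79 and 37 of 82 reached 100 CPM, and 90% of its reads took 29 and 28 wells. In the CD45+ gate 4 and 3 wells reached 100 CPM.

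Timp2, the inhibitor that takes part in activation of MMP2, did not keep one direction between the gates. The CD45- plates held 219 and 204 CPM and the CD45+ plates 244 and 123 CPM, log2 ratios of 0.16 and -0.72. The wells behind these levels differed in number: 21 CD45- wells in each batch reached 100 CPM, against 7 and 9 CD45+ wells. The highest CD45+ well of batch 1 held 4751 CPM, above every CD45- well, and was not collagen-rich.

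Mmp2, a gelatinase that degrades basement membrane collagen, stood at 243 and 216 CPM in CD45- and at 33.5 and 38.1 CPM in CD45+. The log2 ratios were -2.82 and -2.47. A single well carried the CD45+ level in each batch, replicate 5 with 85.6% of the plate's Mmp2 reads in batch 1 and replicate 18 with 96.1% in batch 2. Without that well the log2 ratio was -5.36 in batch 1 and -6.42 in batch 2. In the CD45- gate 17 and 18 wells reached 100 CPM, and medians were 12.3 and 10.1 CPM.

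Mmp14, the membrane-bound enzyme that activates MMP2 and cuts fibrillar collagen, had a similar profile. Its levels were 329 and 226 CPM in CD45- and 62.7 and 37.0 CPM in CD45+, log2 ratios of -2.37 and -2.58. In CD45-, 28 and 25 wells reached 100 CPM, with a highest well of 5175 CPM in batch 1 and 2391 CPM in batch 2. In CD45+, 5 and 2 wells did, and replicate 18 of batch 2 held 85.7% of the reads, without which the log2 ratio was -5.12. With library scaling by trimmed mean of M values (TMM), which shifted gate log2 ratios up by 0.40 and 0.57 before the 1 CPM was added, Mmp2 (-1.91 in batch 2) and Mmp14 (-1.97 in batch 1) fell just short of 4-fold, which left 3 of 9 members called.

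Mmp3, stromelysin 1, a broad matrix protease, was the most uneven member. It stood at 36.1 and 138 CPM in CD45- and at 56.3 and 0.211 CPM in CD45+, log2 ratios of 0.63 in batch 1 and -6.84 in batch 2. Only 3 CD45- wells per batch reached 100 CPM, and replicate 49 alone held 81.4% of the reads of batch 2, at 4043 CPM; without it the log2 ratio was -4.50. In CD45+, replicate 5 held 94.9% of the reads of batch 1, at 2163 CPM, and without it the log2 ratio turned to -3.23. In batch 2 the CD45+ plate had 6 Mmp3 reads in all, 5 of them in the well at the same plate position as replicate 49 of the CD45- plate; the ratio over these 6 reads was 653 (300 to 1782).

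Adamts2, the proteinase that trims the amino end of procollagen, missed the 4-fold rule in batch 1. Its levels were 218 and 246 CPM in CD45- and 69.7 and 21.7 CPM in CD45+, log2 ratios of -1.63 and -3.45. Leaving out CD45+ replicate 5 took batch 1 to -2.53, which passes the rule, and leaving out replicate 91 did so too; leaving out replicate 18 took batch 2 to -6.58. In CD45-, 20 and 18 wells reached 100 CPM, and in CD45+ 4 and 1.

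Adamts1, a secreted protease of proteoglycans such as versican, went opposite ways in the batches. The CD45- plates held 46.4 and 124 CPM and the CD45+ plates 111 and 31.7 CPM, log2 ratios of 1.24 and -1.93. Few wells carried it in either gate: 6 and 8 CD45- wells and 5 and 2 CD45+ wells reached 100 CPM. CD45+ replicate 41 held 49.6% of the reads of batch 1, and without it the log2 ratio was 0.29; CD45+ replicate 8 held 57.3% in batch 2, and without it the ratio was -3.07.

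Adam12, a membrane-bound disintegrin and protease marking activated mesenchymal cells, was the lowest member. It had 368 and 1056 reads in the CD45- plates, 12.5 and 33.3 CPM, and 3 reads in each CD45+ plate, 0.113 CPM (0.0234 to 0.331) and 0.105 CPM (0.0217 to 0.308). The ratio of CD45- to CD45+ was 111 in batch 1 (38 to 539) and 315 in batch 2 (108 to 1532), with log2 ratios of -3.60 and -4.95 once 1 CPM is added. The reads of batch 1 came mostly from CD45- replicate 11, with 84.5% of them, and without it the log2 ratio was -1.43 and the call was lost. In batch 2, 5 wells reached 100 CPM and the highest held 27.9%.

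Levels of different genes can be compared only per length of transcript, for which the union of GENCODE M21 exons was used; whether reads cover whole transcripts is not given in the sources used here. Per kilobase, Timp1 led the CD45- plates with 829 and 786 CPM per kb. Mmp2 (72.1 and 64.1), Timp2 (56.2 and 52.3), Mmp14 (55.2 and 37.9) and Timp3 (47.9 and 45.5 CPM per kb) lay within a factor of 2 of each other. Mmp3 was below these 4 in batch 1 and above them in batch 2 (20.1 and 76.5). Adamts2 (23.4 and 26.4) and Adamts1 (8.76 and 23.4 CPM per kb) were lower than these 4 in both batches, and Adam12 was last with 1.19 and 3.15. In the CD45+ plates Timp2, at 62.7 and 31.7 CPM per kb, stood above Timp1, at 57.1 and 22.5, in both batches.

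The CD45+ levels were concentrated in a few wells with collagen reads. Collagen-rich wells are those in which Col1a1, Col1a2 and Col3a1 sum to at least 2000 CPM; 5 kept CD45+ wells of batch 1 and 4 of batch 2 met this. They held 60.8% and 49.9% of all member reads of their plates. In batch 2 replicate 18 held 4533 of these 4546 reads, and without it the share was 0.284%; in batch 1 the share without replicate 5 was 46.9%. By gene they held 85.6% and 96.4% of Mmp2, 92.7% and 93.7% of Adamts2, 67.9% and 85.7% of Mmp14 and 63.5% and 94.4% of Timp1, but 16.9% and 20.9% of Timp3. Ptprc stood at 6.19 CPM over the 5 of these wells in batch 1 that had at least 50000 reads and at 1.45 CPM over the 2 in batch 2, and Pdgfrb had no read in them. Their macrophage markers, 7 genes such as C1qa and Cd68, summed to 1599 and 8807 CPM, against 19717 and 32643 CPM in CD45+ wells with neither signature and 22.5 and 232 CPM in collagen-rich CD45- wells. Whether these wells held 1 cell each was not tested.

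Without the collagen-rich CD45+ wells, 7 of 9 members were called higher in CD45-, with Mmp3 and Adamts2 added, and none was called higher in CD45+. Of all genes, 14.5% were then called higher in CD45- and 4.32% higher in CD45+. The exclusion was made in the CD45+ gate only, and the collagen-rich CD45- wells were kept. It moves any gene higher in collagen-rich wells toward CD45-, so the larger count adds no support for a gate difference. The log2 ratios became -5.12 and -8.32 for Timp1, -5.28 and -6.47 for Mmp2, -3.84 and -5.12 for Mmp14 and -5.06 and -6.66 for Adamts2. Timp2 kept 113 and 85.5 CPM in the CD45+ plates, log2 ratios of -0.95 and -1.24. Adamts1 kept 84.1 and 33.3 CPM, log2 ratios of 0.84 and -1.86. Of the Adamts1 reads of CD45+ wells with neither signature, 72.7% lay in replicate 41 in batch 1 and 89.4% in replicate 48 in batch 2. Mmp14 kept 22.05 CPM and Timp1 20.2 CPM in batch 1. Among CD45+ wells with neither signature in that batch, replicate 34 held 63.5% of the Mmp14 reads. There replicate 35 held 89.3% of the Timp1 reads, and without it Timp1 was at 2.52 CPM. Timp3 had 64.3% and 74.7% of its reads (wells of at least 50000 reads) in the 6 and 8 CD45+ wells with endothelial markers, at 209 and 199 CPM against 7.91 and 2.71 CPM in wells with neither signature. Those 6 and 8 wells also held macrophage markers, 14547 and 21070 CPM over the summed reads of each set. Most of their Timp3 was in 1 well each, replicate 86 with 54.7% and replicate 8 with 87.5%. These 2 wells held 3231 and 968 CPM of macrophage markers, below the median wells of their sets at 14683 and 20800 CPM. Replicate 53 of batch 1, with Timp3 at 1521 CPM, held 14387 CPM of them.

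**Figure D2:**
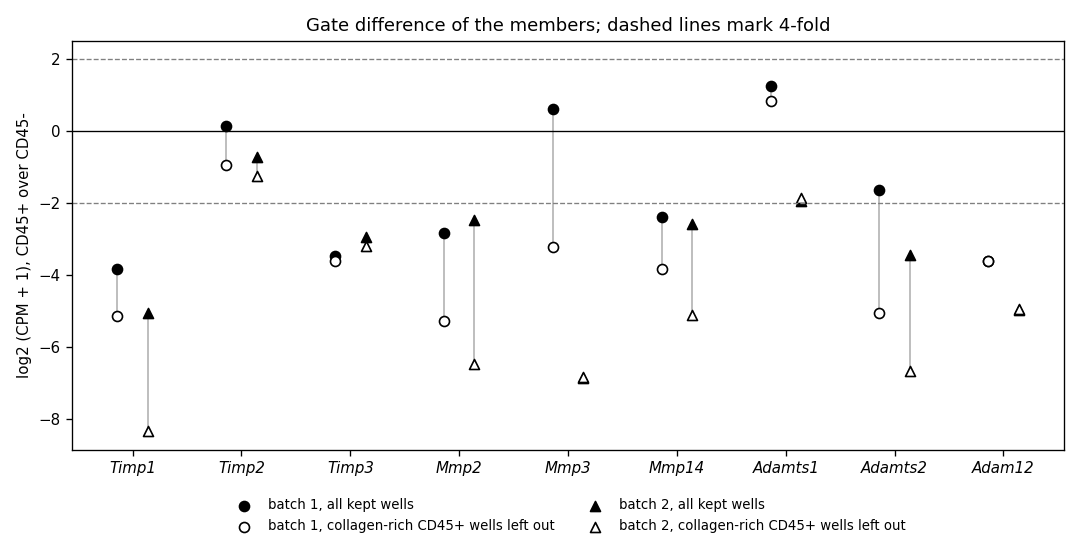
Log2 ratio of CPM plus 1, CD45+ over CD45-, for the 9 genes; circles are batch 1, triangles batch 2, filled for all kept wells and open with collagen-rich CD45+ wells left out, and dashed lines mark 4-fold. Mmp2, Mmp14 and Adamts2 fall in both batches and Mmp3 changes side in batch 1 when those wells are left out, while Adam12 and Timp3 hardly move.

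Within the CD45- gate the members split by the kind of well. An endothelial-marker well has at least 3 of 12 endothelial genes, such as Pecam1, Cdh5 and Kdr, at 100 CPM or more. Of the CD45- wells of at least 50000 reads, 44 and 38 were collagen-rich, 24 and 27 had endothelial markers, 2 and 1 had both and 9 and 16 had neither. These classes are ranges of a score per well, not cell types, and the 9 members took no part in them. Near the limits lay 11 and 7 wells with collagen sums of 1000 to 2000 CPM and 6 and 1 with 2000 to 5000 CPM. Pdgfrb stood at 413 and 350 CPM in the collagen-rich wells and at 91.2 and 41.8 CPM in the endothelial-marker wells.

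Timp1, Timp2, Mmp2, Mmp3, Mmp14, Adamts2 and Adam12 were at least 4-fold higher in collagen-rich than in endothelial-marker wells in both batches, 7 of 9 members, and none was 4-fold higher in endothelial-marker wells. Of 11548 genes compared in the same way, 11.7% were higher in collagen-rich wells and 4.37% in endothelial-marker wells. The members' median log2 ratio, endothelial-marker over collagen-rich, was -3.99 and -2.82, beside -0.18 and -0.08 over all those genes. The collagen-rich wells were the deeper libraries, with a median of 390676 and 452647 reads against 265844 and 206802. Red blood cell markers, 4 genes, differed too: their summed level had a median well of 5648 and 2172 CPM in the collagen-rich class and of 7909 and 3478 CPM in the endothelial-marker class, where 1 well of batch 1 held 655974 CPM. In CD45+ wells with neither signature the medians were 2.84 and 15.1 CPM, so these markers moved with the gate as well. Their part in the class and gate differences was not tested.

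Of the inhibitors, Timp2 separated the classes most. It stood at 334 and 322 CPM in collagen-rich wells and at 11.4 and 11.2 CPM in endothelial-marker wells, log2 ratios of -4.75 and -4.72. Among the collagen-rich wells 19 of 44 and 18 of 38 reached 100 CPM, and among the endothelial-marker wells 0 of 24 and 1 of 27. Timp1 had 1113 and 926 CPM in the collagen-rich class and 77.4 and 130 CPM in the other, log2 ratios of -3.83 and -2.82. It reached 100 CPM in 25 collagen-rich wells of each batch, with medians of 246 and 583 CPM, and in 2 and 3 endothelial-marker wells, with medians of 28.2 and 19.4 CPM.

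Timp3 was the inhibitor of both classes. It stood at 415 and 276 CPM in collagen-rich wells and at 397 and 701 CPM in endothelial-marker wells, log2 ratios of -0.06 and 1.34. The wells overlapped throughout: collagen-rich wells ran from 0 over a median of 157 to 2144 CPM in batch 1 and from 1.22 over 35.3 to 2029 CPM in batch 2, and endothelial-marker wells from 5.74 over 67.8 to 2229 CPM and from 0 over 108 to 2403 CPM. In the endothelial-marker wells Timp3 made up 62.2% and 67.4% of all member reads, in the collagen-rich wells 13.1% and 9.32%. It was not particular to these classes. CD45- wells with neither signature held it at 255 and 331 CPM, 66.5% and 34.8% of their member reads. There 4 of 9 and 7 of 16 wells reached 100 CPM.

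Of the proteases, Adamts2 had a class difference that leaned least on single wells. It stood at 335 and 425 CPM in collagen-rich wells and at 9.04 and 9.74 CPM in endothelial-marker wells, log2 ratios of -5.07 and -5.31. Leaving out any 1 well kept these between -5.19 and -4.90 in batch 1 and between -5.46 and -5.16 in batch 2. It reached 100 CPM in 19 of 44 and 18 of 38 collagen-rich wells and in no endothelial-marker well. The median endothelial-marker well was at 8.83 and 9.37 CPM, near the summed level. Whether these low reads came from the sorted cells was not tested.

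Mmp14 stood at 496 and 337 CPM in collagen-rich wells and at 35.3 and 57.4 CPM in endothelial-marker wells, log2 ratios of -3.78 and -2.53. Of the endothelial-marker reads, 74.4% in batch 1 lay in replicate 43 and 66.3% in batch 2 in replicate 24; without them the ratios were -5.57 and -3.91. Mmp2 had 369 and 346 CPM in collagen-rich wells and 19.1 and 74.5 CPM in endothelial-marker wells, log2 ratios of -4.20 and -2.20. Replicate 18 held 72.6% of the endothelial-marker reads of Mmp2 in batch 2, and without it the ratio was -3.95. The same well held 44.8% of the endothelial-marker reads of Timp1 in that batch.

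Mmp3 stood at 55.5 and 237 CPM in collagen-rich wells and at 2.26 and 4.80 CPM in endothelial-marker wells, log2 ratios of -4.12 and -5.36. Only 3 collagen-rich wells per batch reached 100 CPM, and without replicate 49 the ratio of batch 2 was -2.89. Adam12 was found in 1 and 5 collagen-rich wells at 100 CPM or more. Its endothelial-marker wells held 2 and 6 reads, and the ratio of collagen-rich to endothelial-marker wells was 68.6 (18.8 to 568) and 63.8 (29.2 to 174). Without replicate 11 the log2 ratio of batch 1 was -1.59, which misses the 4-fold rule.

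Adamts1 followed neither class. It stood at 35.2 and 40.01 CPM in collagen-rich wells and at 86.2 and 50.5 CPM in endothelial-marker wells, log2 ratios of 1.27 and 0.33. Replicate 22 held 79.8% of its endothelial-marker reads in batch 1, and without it the ratio turned to -0.90; without replicate 20 the ratio of batch 2 turned to -0.49. In batch 2, 73.01% of the Adamts1 reads of these wells lay in the 16 wells with neither signature, 3 of which reached 100 CPM. The highest, replicate 11 at 4242 CPM, also held 131424 CPM of Ren1, the gene of renin, which juxtaglomerular cells secrete. The well with more Ren1, replicate 13 at 377426 CPM, had 91.7 CPM of Adamts1. Ren1 was looked at after these values were seen.

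**Figure D3:**
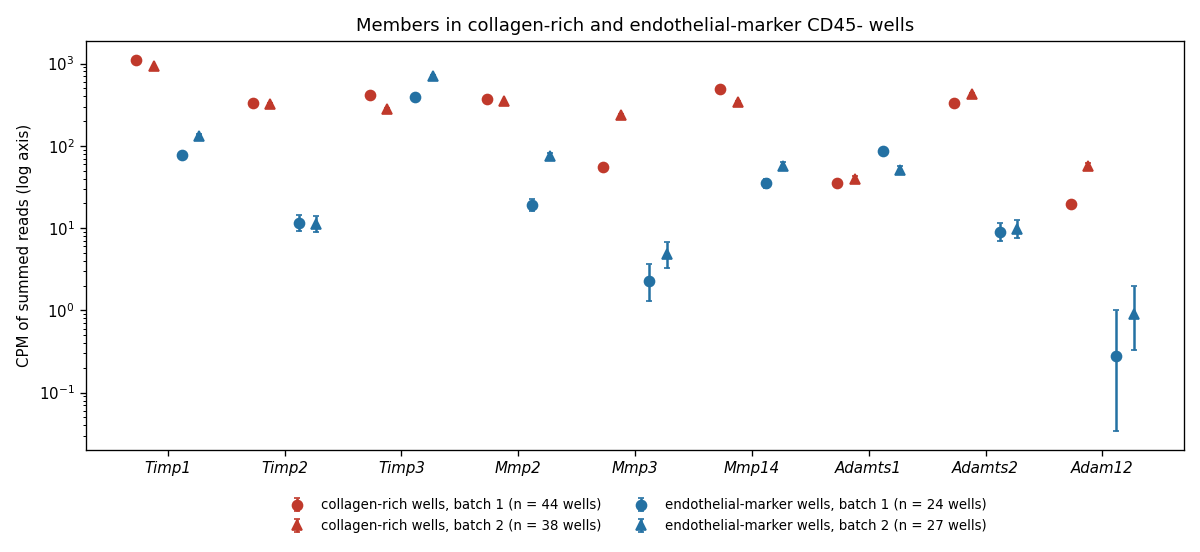
CPM of the summed reads on a log axis for the 9 genes in collagen-rich (red) and endothelial-marker (blue) CD45- wells; circles are batch 1 (44 and 24 wells), triangles batch 2 (38 and 27 wells), and bars are exact 95% Poisson intervals of the read counts. The red and blue marks stand apart for 7 genes and lie close together for Timp3 and Adamts1.

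Members were also counted together within single collagen-rich wells. Taking 100 CPM as the limit, 30 of 44 collagen-rich wells of batch 1 and 27 of 38 of batch 2 had at least 1 protease and 1 inhibitor, 7 and 6 had inhibitors alone, 5 and 3 had proteases alone and 2 in each batch had none. The 3 genes of the activation complex, Mmp2, Mmp14 and Timp2, were together at that level in 3 and 5 wells. Taken singly, 13 and 16 wells had Mmp2, 24 and 20 had Mmp14 and 19 and 18 had Timp2. All 3 inhibitors were together in 8 and 4 wells. The overlap that the single counts alone would give was not worked out, so these joint counts are not read as low or high. No collagen-rich well had more than 3 of the 6 proteases in batch 1 or more than 4 in batch 2. In the endothelial-marker wells the commonest pattern was inhibitors alone, 10 of 24 and 13 of 27, and 8 wells of each batch had no member at 100 CPM. A read missing from a well of this depth does not show that the cell lacked the transcript.

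The balance of the 2 arms is given as the protease share, the reads of the 6 proteases as a percentage of the reads of all 9 members. It was 39.7% (39.3 to 40.1) and 43.6% (43.2 to 43.96) in the CD45- plates and 50.4% (49.6 to 51.1) and 40.3% (39.3 to 41.3) in the CD45+ plates. The gates thus did not keep an order over the batches. Without collagen-rich CD45+ wells, the CD45+ shares were 42.3% and 24.97%, the remaining reads being led by Timp2 with 39.7% and 50.7%. Leaving out CD45+ replicate 5 took batch 1 to 41.7%, and leaving out CD45+ replicate 18 took batch 2 to 25.1%. Leaving out CD45+ replicate 50 took batch 2 to 43.96%, above the 43.6% of CD45-. Scaled per kilobase, the shares were 16.2% and 20.7% in CD45- and 39.3% and 30.2% in CD45+, since short Timp1 then weighs more; on this scale the CD45+ share was higher in both batches. The same held with Timp2 left out, at 44.005% and 47.9% in CD45- and 79.7% and 65.5% in CD45+. Of the CD45+ wells of at least 50000 reads, only 21 and 14 had at least 20 member reads. Their median shares were 52.8% and 9.09%, with ranges of 0 to 100% and 0.130% to 99.7%. In CD45- the medians were 32.6% and 34.5% over 78 and 76 wells.

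Between the classes of CD45- well the share kept its order. It was 41.3% and 48.6% in collagen-rich wells and 23.9% and 19.02% in endothelial-marker wells. Leaving out any 1 well kept the first between 38.8% and 43.3% and between 46.4% and 50.6%, and the second between 15.6% and 28.7% and between 15.5% and 21.5%. The median wells, of those with at least 20 member reads, were at 41.5% and 49.1% in the collagen-rich class and at 23.4% and 19.2% in the endothelial-marker class. Single wells covered nearly the whole range in both, from 0.932% to 99.6% in collagen-rich wells of batch 1 and from 1.13% to 96.5% in endothelial-marker wells. Scaled per kilobase the order did not hold in batch 1, with 16.2% and 23.2% in collagen-rich wells and 17.8% and 16.1% in endothelial-marker wells. The CD45- wells with neither signature were at 18.8% and 58.04%; the latter was 42.1% without the Adamts1-rich replicate 11.

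**Figure D4:**
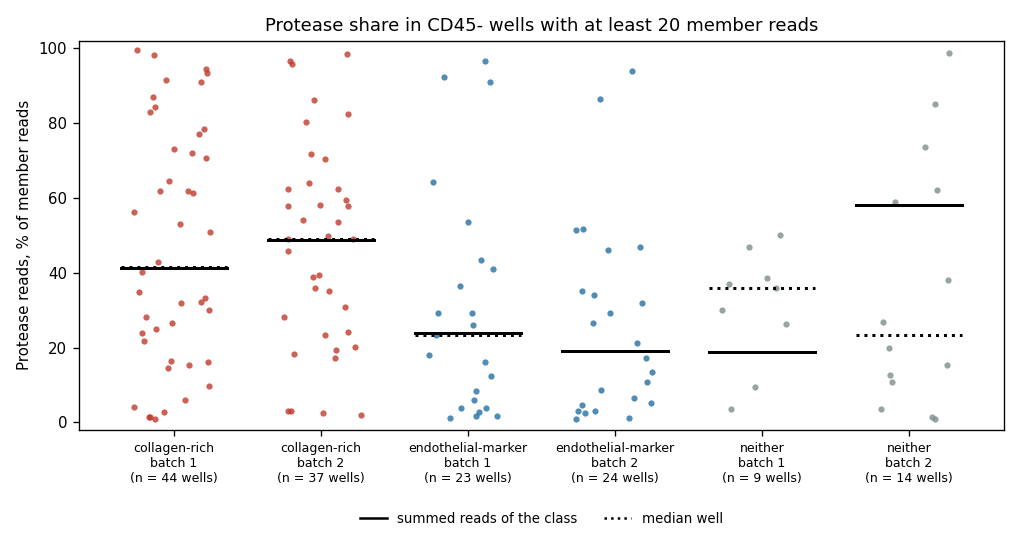
Protease reads as a percentage of member reads in each CD45- well with at least 50000 reads and 20 member reads, by class and batch; solid lines are the summed reads of the class and dotted lines the median well. Collagen-rich wells spread over the whole range around 41.3% and 48.6%, and endothelial-marker wells also spread widely, from 1.13% to 96.5% in batch 1, with lower lines at 23.9% and 19.02%.

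Over whole CD45- plates, Timp1, Timp2 and Timp3 held nearly the same level in both batches. No member was at least 4-fold higher in 1 batch in both gates, beside 1.46% of all genes higher in batch 1 and 3.1% higher in batch 2. In CD45-, Timp1, Timp2, Timp3, Mmp2 and Adamts2 had log2 ratios of batch 2 over batch 1 between -0.17 and 0.17, and Mmp14 of -0.54. Over these plates the members carried by few wells moved most: Mmp3 by 1.90, Adamts1 by 1.397 and Adam12 by 1.34. Within collagen-rich and endothelial-marker CD45- wells in turn, the ratios were -0.58 and 0.82 for Timp3 and -0.27 and 0.74 for Timp1. They were -0.09 and 1.91 for Mmp2, -0.56 and 0.69 for Mmp14, 0.34 and 0.10 for Adamts2 and -0.05 and -0.02 for Timp2. In CD45+ the same ratios were -5.57 for Mmp3 and -1.78 for Adamts1, -1.64 for Adamts2, -1.30 for Timp1 and -0.98 for Timp2.

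Wells with few reads were set beside all kept wells of their plate, and how much cell RNA they held was not measured. CD45- wells with under 50000 reads, 17 and 14, held Timp1 at 389 and 545 CPM and Mmp2 at 188 and 192 CPM, where all kept wells gave 736 and 698 CPM and 243 and 216 CPM. Mmp14 was at 95.6 and 183 CPM and Adamts1 at 28.3 and 13.7 CPM in these wells, where all kept wells gave 329 and 226 CPM and 46.4 and 124 CPM. The median shallow well was at 303 and 334 CPM for Timp1, 145 and 128 for Mmp2, 87.9 and 121 for Mmp14. It was at 0 for Adamts1. The median well of at least 50000 reads was lower for Timp1 (55.6 and 50.3 CPM), Mmp2 (12.3 and 10.1) and Mmp14 (21.3 and 6.43). For Adamts1 it was at 0 and 2.76 CPM. How many reads of the shallow wells came from other wells was not tested. In the CD45+ plates the shallow wells, 20 and 18, held Timp1 at 20.3 and 12.9 CPM. The leading well of each member in each plate was also set beside the well at the same position of the other plate of its batch. In 29 of 36 cases that well had 10 reads or fewer of the gene, and the leading CD45- wells of Mmp2, Mmp14, Adamts2 and Timp2 faced 0 to 4 reads. The rate at unpaired positions was not counted, and the median CD45+ well had no read of most members. This count therefore cannot show whether reads passed between plates. Other positions had many reads on both plates. For Timp1 in batch 1 the leading CD45- well had 4225 reads and the CD45+ well at its position, replicate 35, 426; the leading CD45+ well had 506 and its CD45- counterpart 2024. The leading CD45+ well of batch 2, replicate 18, had 535 reads of Timp1 and 1043 of Mmp2, and the CD45- well at that position 389 and 361. For Timp3 in batch 1 the leading CD45+ well had 315 reads and its counterpart 623. Of the 3 Adam12 reads of the CD45+ plate of batch 2, 1 lay at the position of the leading CD45- well, which had 295. Whether reads passed between plates was not tested.

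Over wells of the CD45- gate the collagen genes were among those most like the members. Pearson's r of log2 CPM plus 1 over the 79 and 82 wells, among 4629 genes, reached 0.5 in both batches for 4 members. Mmp14 went with Col1a2 (0.58 and 0.58) and Col3a1 (0.52 and 0.60), Adamts2 with Col1a1 (0.55 and 0.56) and Col3a1 (0.51 and 0.54), Timp2 with Col3a1 (0.50 and 0.52), and Timp1 with Mgp (0.51 and 0.56) and Lgals1 (0.56 and 0.51). No gene reached it for Timp3, Mmp2, Mmp3 or Adamts1, and Adam12 had reads in too few wells. In the CD45+ gate no gene reached it for any member measured, among 2719 genes. The CD45- wells mix the classes, and Col1a1, Col1a2 and Col3a1 define the collagen-rich class. The values for these collagens thus partly restate the class difference and are not separate evidence. The wells of a plate share a library and differ in depth, so these values only describe the plates.

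Other proteases and inhibitors of the same families were counted from a list of 54 genes. Of the 38 at 1 CPM or more on average, 10 were called higher in CD45-, 2 higher in CD45+ and 26 neither. Beside this, 12.9% of all genes were called higher in CD45- and 4.33% higher in CD45+. The median log2 ratio of these 38 was -0.17 in batch 1 and -2.26 in batch 2, beside -0.39 and -0.56 over all genes. The most abundant was Pcolce, an enhancer of procollagen processing, at 1455 and 2287 CPM in CD45- and 51.2 and 171 CPM in CD45+, log2 ratios of -4.80 and -3.74. Mmp23 (-3.62 and -2.63), Adamts4 (-6.59 and -5.14), Mmp19 (-4.46 and -4.17), Adamts12 (-4.55 and -3.85) and Adamts7 (-4.16 and -3.60) were also called higher in CD45-. Leaving out the leading CD45- well of a gene in each batch kept 6 of the 10 calls, those of Pcolce and these 5. Adamtsl4 (-3.74 and -3.69) lost its call, at -0.89 in batch 1 without replicate 93.

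The 2 genes higher in CD45+ encode proteases of macrophages and neutrophils. Mmp9, gelatinase B, stood at 36.6 and 24.4 CPM in CD45+ and 3.44 and 0.0945 CPM in CD45-, log2 ratios of 3.08 and 4.54, and at 2.03 and 3.26 without its leading well in each batch. Mmp12, macrophage elastase, had 97.3% of its CD45+ reads of batch 1 in replicate 80; its log2 ratios of 3.39 and 4.46 became -1.21 and 3.49 without the leading wells.

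Between the classes of CD45- well, 30 genes of the list could be compared, and 11 were higher in collagen-rich wells, 1 in endothelial-marker wells and 18 in neither. Beside this, 11.7% of all genes compared were higher in collagen-rich wells and 4.37% in endothelial-marker wells. Adam19 (-5.45 and -4.52), Adamts12 (-4.36 and -3.98), Mmp23 (-4.74 and -3.82), Adamts7 (-4.51 and -3.75), Adamts15 (-3.60 and -4.93) and Adamts10 (-3.55 and -4.39) led the 11 higher in collagen-rich wells. Without its leading well in each batch Adamts15 lost its call, at -0.87 in batch 1, and 7 of the 11 calls held. Adam15, a membrane-bound disintegrin and protease, was the 1 gene higher in endothelial-marker wells, at 233 and 353 CPM against 38.1 and 44.2 CPM, log2 ratios of 2.58 and 2.97. Replicate 45 held 54.8% of its endothelial-marker reads in batch 1, and without it the ratio was 1.54. Bmp1, the procollagen C-proteinase, was among the 4 most abundant of the list, with log2 ratios of -3.54 and -1.48, and was called in neither direction.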

How the data were processed

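The authors deposited raw read counts per gene and well, 1 table per batch, per the labels, and the values are whole. Cells were lysed in their wells and complementary DNA was made with a Clontech SMARTer kit and barcoded by well, per the labels' protocols. STAR (listed as 3.0.4), Subread and featureCounts 1.4.5 are named per the submitters' processing notes; their roles, the genome build and the annotation are not given in the sources used here, so no coordinates are printed. Repeated lines of a gene (598 and 595, with 2.39% and 2.42% of the reads) were dropped.

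Wells of at least 10000 reads and 500 genes were kept, 368 of 384; the 16 left out held 123680 reads. No doublet or free RNA caller was run. The wells held 5323 to 1246070 reads. The highest correlation of log levels was 0.690 between wells of a plate and 0.618 between plates, so no well appeared deposited more than once. Counts were summed per plate or class and scaled to CPM. Log2 ratios have a pseudocount of 1 CPM, which understates ratios of genes near 0. A call needs a difference of at least 4-fold, the same way, in each batch. Plate intervals are exact Poisson, shares exact binomial (Clopper-Pearson). The deposited counts were not tested with a count model, since each gate and batch is 1 sample.

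All 9 members were named, with, from the list of 54 other genes, the 4 most abundant and up to 6 called per direction with the largest smaller ratio of both batches; correlated genes needed r of at least 0.5 in both batches. A gene was correlated where at least 20% of the wells had a read of it. The members, lists, classes and limits were chosen with earlier results of these data known. Other limits, weightings, pseudocounts, TMM scaling (edgeR 4.0.16, R 4.3.3) and leaving out each well were tried. Python 3.11.15, numpy 2.4.6, pandas 2.3.3 and scipy 1.17.1 were used.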

Additional observations from a re-analysis of the deposited data

Results flagged for a closer look

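Results are listed here because the batches went opposite ways, or because reads lay outside the wells compared; the differences between batches were not tested. The log2 ratio of CD45+ over CD45- was 0.16 in batch 1 and -0.72 in batch 2 for Timp2. For Mmp3 it was 0.63 and -6.84, with CD45+ replicate 5 holding 94.9% of the CD45+ reads of batch 1. For Adamts1 it was 1.24 and -1.93, and no more than 8 wells of any plate reached 100 CPM. The log2 ratio of endothelial-marker over collagen-rich wells was -0.06 and 1.34 for Timp3, whose wells overlapped in both batches. The 16 wells left out held 83 member reads, 671 CPM.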

How the results depend on the processing

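Limits: each gate and batch is 1 plate, so no setting gives a spread between animals, and depth bounds what a well without a read shows. 5 members were called higher in 1 gate; the count was 4 to 7 under a pseudocount of 0.1 or 10, a 2-fold limit, wells of at least 50000 reads, repeated lines kept, equal weight per well, and collagen-rich CD45+ wells left out. It was 2 at an 8-fold limit (Timp1 and Adam12), where 9.77% of all genes were called in either direction, against 29.46% at 2-fold and 17.24% at 4-fold, and 3 with TMM factors (Timp1, Timp3 and Adam12). Leaving out 1 well gave 4 to 7. 7 members were called between the classes of CD45- well, 6 or 7 under every other setting tried except an 8-fold limit, which gave 4 (9.72% of all genes, against 26.2% at 2-fold and 16.08% at 4-fold), and 6 to 7 without 1 well. No member was called by batch under any setting listed or without any 1 well. TMM moved the class log2 ratios by -0.11 and -0.12 and the CD45- batch ratio by -0.14.

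The protease share moved in each plate with the genes counted and the weight of wells. For CD45- batch 1, CD45- batch 2, CD45+ batch 1 and CD45+ batch 2 in turn, against 39.7, 43.6, 50.4 and 40.3%, it was 42.9, 44.2, 43.4 and 36.2% with wells weighted equally, 31.1, 31.3, 31.7 and 28.3% with Mmp2, Mmp3 and Mmp14 as the proteases, and 44.005, 47.9, 79.7 and 65.5% without Timp2. Without collagen-rich wells the CD45+ shares were 42.3 and 24.97%. Without 1 well each they ran from 37.3 to 41.3%, 41.4 to 46.3%, 41.7 to 53.5% and 25.1 to 43.96%. Without Timp2, and scaled per kilobase, the CD45+ share was the higher in both batches. Leaving out CD45+ replicate 50 of batch 2 also put CD45+ higher there, at 43.96% against 43.6%. Equal weight, the 3 Mmp genes and leaving out collagen-rich wells kept the order of the gates in each batch. No paired analysis was possible because wells of different plates share only a plate position. The settings and the leading-well exclusion for other genes were chosen with the data known; why values moved was not tested.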
